A study of Homo sapiens with 4 samples.

Results

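The HOX genes and the long noncoding RNA HOTAIR were examined in GIST-T1, a human line established from a gastrointestinal stromal tumor (GIST), with and without a mimic of the microRNA miR-335. All array features named HOXA, HOXB, HOXC or HOXD followed by a number, together with those named HOTAIR, were considered. Described here are 53 probes for 39 of the 36337 gene names on the array, namely 10 genes of the HOXA cluster, 10 of HOXB, 9 of HOXC, 9 of HOXD, and HOTAIR. The mimic group received a mirVana miR-335 mimic, which stands in for the mature microRNA, and the control group received mirVana Negative Control #1. Cells of both groups were nucleofected with 100 pmol of RNA, and their RNA was extracted after 48 h, of which 100 ng was labeled for 1-color Agilent arrays. There were 2 arrays in each group and no untransfected cells. The sample titles and the treatment field name miR-335, whereas a further line of the mimic arrays' descriptions names miR-34a; the titles were followed. The labels do not say whether the arrays came from separate cultures, so the p-values below may measure technical spread alone. GIST-T1 is a single line, and what it expresses may not hold for other GISTs.

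HOX genes encode homeodomain transcription factors that give cells their position along the body axis. They lie in 4 clusters in which the order of the genes follows the order of the body regions where they act, so that low numbers pattern anterior and high numbers posterior structures, and genes of the same number in different clusters are paralogs. Adult cells and tumors keep much of the HOX pattern of their site of origin, and Polycomb proteins keep unused HOX genes silent. HOTAIR is transcribed from the HOXC cluster, antisense to its coding genes, and is known to bind the Polycomb complex PRC2 and the LSD1 demethylase complex.

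The clusters also hold microRNA genes. The sequences below show the RNA that was introduced and 3 of the microRNAs of the HOX clusters, with the seed (bases 2 to 8, which pair with target mRNAs) in capitals. The labels do not say which arm of miR-335 the mimic carried, so both are given. The sequences are those of RefSeq (GRCh38.p14). Neither miR-335 seed is shared with these 3, whereas miR-196a, encoded in the HOXB and HOXC clusters, and miR-196b, encoded in the HOXA cluster, share a seed and are known to repress HOX genes such as HOXB8. miR-10a is encoded in the HOXB cluster. The clusters also encode miR-10b and miR-615, whose seeds were not examined.
hsa-miR-335-5p: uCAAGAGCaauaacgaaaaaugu
hsa-miR-335-3p: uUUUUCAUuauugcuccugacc
hsa-miR-196a-5p: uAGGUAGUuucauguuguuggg
hsa-miR-196b-5p: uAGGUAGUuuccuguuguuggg
hsa-miR-10a-5p: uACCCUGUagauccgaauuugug

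The gene for miR-335 lies outside the HOX clusters, at chr7:130496126-130496148 (5p arm, plus strand), and that for miR-196b at chr7:27169528-27169549 (minus strand), both in GRCh38.p14. The complement of the miR-335-5p seed (GCTCTTG) was found in 0 of the 53 HOX and HOTAIR probes, against 0.437% of all 50599 probes, and that of the miR-335-3p seed (ATGAAAA) in 1, a HOXD9 probe, against 1.22%. The complement of the miR-196 seed (ACTACCT) was in 0 of the 53, against 0.334% of all probes, and that of the miR-10a seed (ACAGGGT) also in 0, against 0.304%. Each search read the sense strand of a 60-base probe, a small stretch of the transcript, so it leaves most of each mRNA unread.

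On each array 40.3% to 41.9% of the 50599 probes carried the flag well above background, the one that the scanner software gives to a spot clearly brighter than its surroundings. All values below are log2 intensities minus the array's 75th percentile, so that 0 is the level of a probe brighter than 75% of the others, and the lowest value with the flag lay between -3.19 and -2.93. Of 8 markers of GIST and of interstitial cells of Cajal, among them KIT and ANO1, 8 were well above background on both control arrays. Markers of other cell types were detected in part. They were 2 of 4 on each of the smooth muscle (DES and ACTG2) and epithelial (EPCAM and CDX2) lists and 1 of 3 on the leukocyte list (CD14). The others, smooth muscle MYH11 and CNN1, epithelial CDH1 and KRT20, and leukocyte PTPRC and CD3E, were not detected on any array. HAND1, a mesodermal transcription factor, was the GIST marker that passed the limma threshold (adjusted p = 0.0314), with a log2 change of -0.92. Its adjusted p was 0.134 to 0.189 with any single array left out, 0.125 with the replicate number as a block and 0.410 without a filter on dim probes, so the call was lost in each.

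Which HOX genes these cells express was read from detection, because the brightness of different probes cannot be compared. A gene was counted as detected when at least 1 of its probes was well above background on both control arrays. By this measure 26 of the 38 HOX genes were detected in the control cells, and HOTAIR was as well. Of the 53 probes, 35 (66.0%) were detected on both control arrays, against 39.2% of all 50599 probes. Genes were detected in each of the 4 clusters, 8 of 9 in HOXC, 6 of 9 in HOXD, 7 of 10 in HOXA and 5 of 10 in HOXB.

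**Figure D1:**
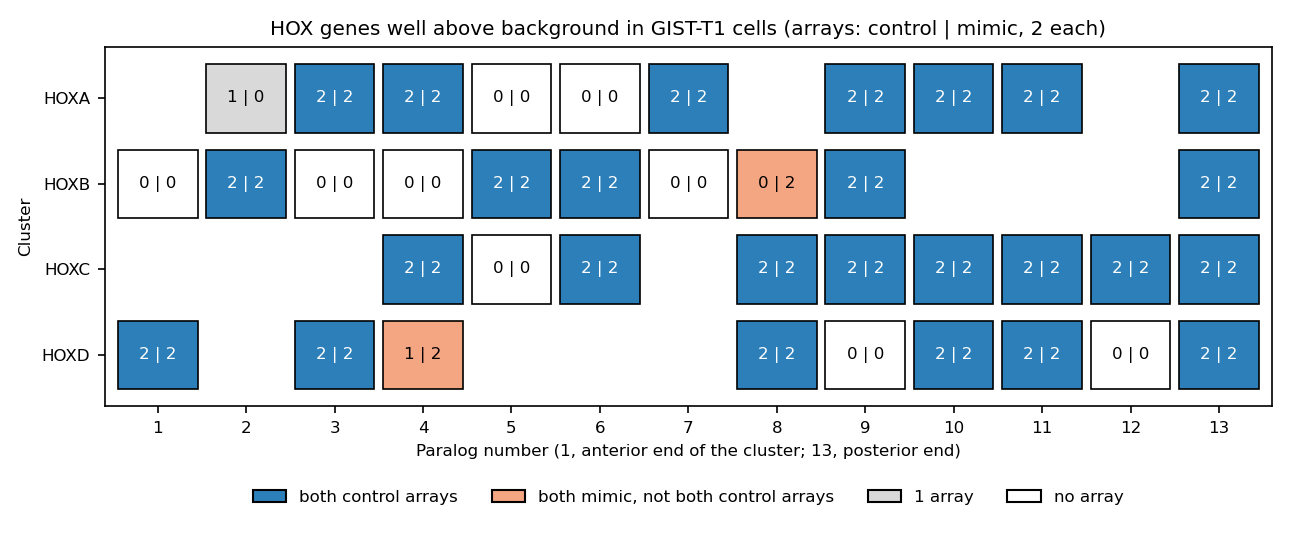
Detection of the 38 HOX genes by cluster (rows) and paralog number (columns). The numbers in each box are the control and mimic arrays, of 2 each, on which the gene's best probe was well above background; gaps are positions with no gene shown. The posterior positions 10, 11 and 13 are filled in every cluster that has them, and HOXB8 and HOXD4 are the genes detected on both mimic arrays without being detected on both control arrays.

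Pooled over the clusters, a larger share of the posterior genes was detected. Of the 16 genes with paralog numbers 9 to 13, 14 were detected (87.5%), against 8 of 15 with numbers 4 to 8 (53.3%) and 4 of 7 with numbers 1 to 3 (57.1%). HOXD went the other way, with 2 of 2 anterior, 1 of 2 central and 3 of 5 posterior genes. With a weaker flag (positive and significantly above background) the contrast was gone, at 15 of 16 posterior, 14 of 15 central and 6 of 7 anterior genes. With the stricter flag all 3 genes of group 10, all 3 of group 11 and all 4 of group 13 were detected. Group 13 genes act at the posterior end of the embryo and in the distal limbs and hindgut. The posterior genes that were not detected were HOXD9 and HOXD12. These are counts of neighboring genes in 1 cell line, measured by probes that differ in sensitivity, and no test was made of them.

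In the HOXA cluster the detected genes were HOXA3, HOXA4, HOXA7, HOXA9, HOXA10, HOXA11 and HOXA13. The HOXA7 probe, which gave the strongest signal in the cluster, read 2.23 and 2.17 on the 2 control arrays and 2.03 and 2.07 on the mimic arrays. HOXA5 and HOXA6 were below the flag on all 4 arrays. HOXA2 was flagged on control array 2 alone, where it read -2.33, against -3.38 on control array 1 and -3.89 and -3.13 on the mimic arrays. HOXA9 and HOXA10, Abdominal-B type genes with roles in the uterus, limb and blood, had probes that disagreed. A HOXA10 probe that spans 2 exons (chr7:27211789-27213023, minus strand, hg19) read 2.00 and 1.84 on the control arrays, whereas its other probe read -5.02 and -4.30. Likewise a HOXA9 probe read 0.22 and 0.35 and its partner -4.89 and -5.12. A gene listed as not detected with a single probe may therefore have been missed, and 32 of the 39 genes had 1 probe.

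In the HOXB cluster HOXB2, HOXB5, HOXB6, HOXB9 and HOXB13 were detected. HOXB2, which patterns the hindbrain, read 4.38 and 4.39 on the control arrays and 4.37 and 4.44 on the mimic arrays. HOXB9 read 4.45 and 4.38 on the control arrays and 4.21 and 4.31 on the mimic arrays. HOXB13 lies far from the rest of the cluster, with its probe 103.5 kb beyond that of HOXB9, and is known as a marker of prostate and distal colon. It read 1.90 on both control arrays. HOXB1, HOXB3, HOXB4 and HOXB7 were not flagged on any array. HOXB3 read -2.57 and -2.85 on the control arrays and -3.69 and -3.25 on the mimic arrays, near the lowest flagged values.

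The HOXC cluster was the most completely detected, from HOXC4 to HOXC13, with HOXC5 as the gap. The HOXC6 probe, which gave the strongest signal in the cluster, read 3.82 on both control arrays and 3.74 and 3.73 on the mimic arrays. HOXC5 read between -4.29 and -3.34 over the 4 arrays. HOXC8, HOXC11 and HOXC12 were detected close to the limit, with values between -2.89 and -1.96 on all 4 arrays, whereas HOXC9 read 2.98 and 2.90 on the control arrays. In the HOXD cluster HOXD1, HOXD3, HOXD8, HOXD10, HOXD11 and HOXD13 were detected. HOXD1, the most anterior gene of its cluster, was measured by 10 spots per array, and their averages were 2.86 and 2.91 on the control arrays and 2.69 and 2.71 on the mimic arrays. The 10 spots differed among themselves by an SD of 0.0746 to 0.0815 within an array. HOXD9 was not flagged on any array by either of its 2 probes.

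The choice of flag mattered for the dim genes. When a spot had to be positive and significantly above background, a weaker demand, 36 of the 39 genes counted as detected, and HOXA5, HOXB1 and HOXD9 were the exceptions. When every probe of a gene had to be detected, 24 remained, without HOXA9, HOXA10 and HOTAIR.

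HOX genes resemble each other most in the homeobox, which encodes the DNA-binding homeodomain. How alike the probes are there can be seen from the 3 that cross the codons for glutamine, asparagine and arginine in the recognition helix, found in 3 of the 53 probes and in 0.539% of all probes. The probes are shown with these codons in capitals, on the sense strand. HOXB2 lies at chr17:46620897-46620956 (minus strand), HOXC10 at chr12:54383100-54383159 (plus strand) and HOXD9 at chr2:176988842-176988901 (plus strand), all in hg19 as the array files give them.
HOXB2: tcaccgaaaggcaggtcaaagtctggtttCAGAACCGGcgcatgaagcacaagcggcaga
HOXC10: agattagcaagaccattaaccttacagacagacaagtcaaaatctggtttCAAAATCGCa
HOXD9: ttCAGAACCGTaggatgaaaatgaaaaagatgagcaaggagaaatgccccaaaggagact

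With the codons lined up, HOXB2 and HOXD9 were identical at 21 of 33 shared bases (63.6%) and HOXB2 and HOXC10 at 29 of 39 (74.4%). The HOXB2 probe read 1.55 and 1.45 on the control arrays and the HOXC10 probe -0.75 and -0.51, both well above background. The HOXD9 probe read -4.85 and -5.22 and was not flagged. Whether the probes also read paralogs was not tested. The longest run of bases shared by probes of different genes was 15, between HOXC11 and a HOTAIR probe, and among the HOX genes described it was 11, between HOXA4 and HOXA6 and between HOXB9 and HOXC9.

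**Figure D2:**
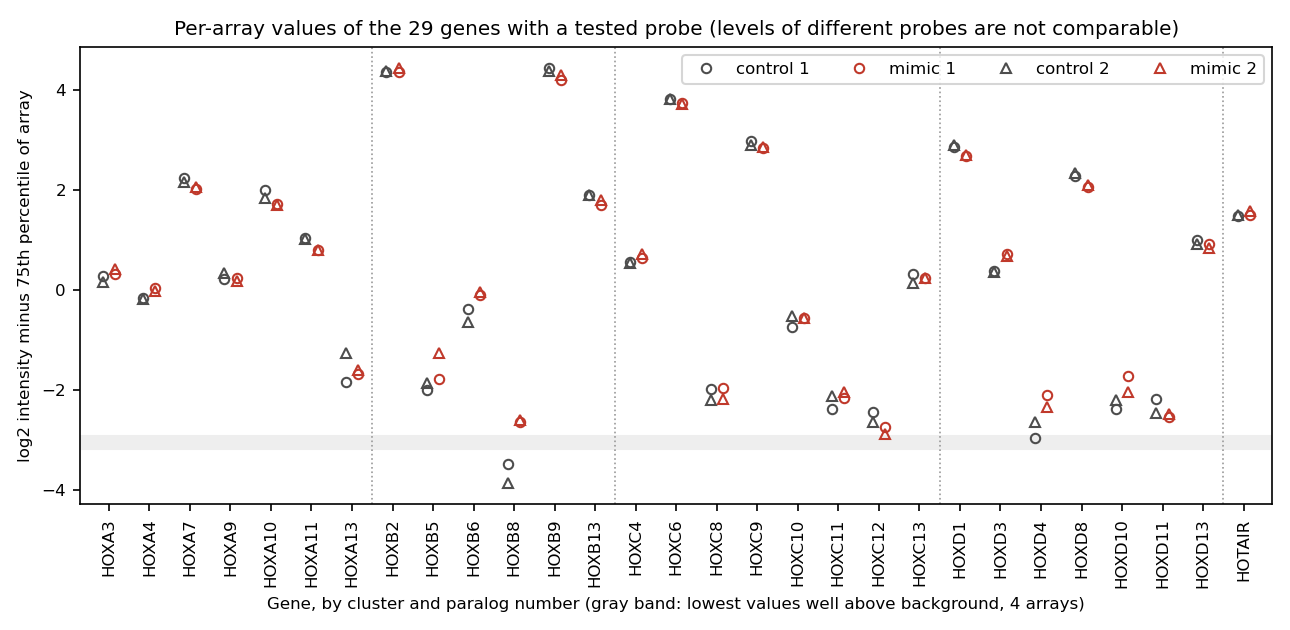
Values of the 29 genes with a tested probe, 1 probe per gene (the brightest over the 4 arrays), on the 2 control (gray) and 2 mimic (red) arrays, as log2 intensity minus the array's 75th percentile. The groups lie close together for most genes, and HOXB8 is the gene with both control arrays below the gray band of the lowest flagged values (-3.19 to -2.93) and both mimic arrays above it.

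The effect of the mimic was tested in 38 of the 53 probes, those flagged on both control or both mimic arrays, which covered 29 genes. The other 15 probes had no test, and they included every probe of 10 genes (HOXA2, HOXA5, HOXA6, HOXB1, HOXB3, HOXB4, HOXB7, HOXC5, HOXD9 and HOXD12). In limma, 0 of the 38 passed a Benjamini-Hochberg adjusted p of 0.05, whereas 1.15% of all 20328 tested probes passed as lower and 1.47% as higher with the mimic. With a single array left out, 0 to 8 of the 20328 passed, and 0 with the replicate number as a block or without a filter on dim probes, so the 0 among HOX probes was fixed in those fits. At an unadjusted p below 0.05 there were 10 of 38 (HOX probes all), against 25.3% of all tested probes. The t-test that the study's methods name for continuous variables gave 8 of 38 at that unadjusted level. Its share of all tested probes at that level was not counted, so the 8 cannot be set against the whole array. After Benjamini-Hochberg adjustment the t-test gave 0, as it did over all tested probes. For its arrays the study states a 1.5-fold limit and no test. For a single gene, an exact permutation of 2 against 2 arrays has 0.333 as its smallest two-sided p.

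The direction was mixed. Of the 38 probes 17 were lower and 21 higher with the mimic, with a median log2 change of 0.01, against -0.01 over all tested probes; scaling to the spike-in RNAs, which moved the median of all tested probes to -0.20, turned this to 32 lower and 6 higher. The median of the HOX and HOTAIR probes relative to that of all probes was 0.03 under both scalings. Each scaling subtracts 1 value per array, so this difference could not change between them. Of the 38 probes, 3 were tested because of the mimic arrays alone, those of HOXB8 and HOXD4 and 1 HOTAIR probe. Among the 35 detected on all 4 arrays, 17 were lower and 18 higher, and the changes ran from -0.27 to 0.44, each within 1.5-fold. In these 35 the groups did not overlap in 12 probes that were lower and 11 that were higher with the mimic, against 32.8% and 26.6% of all 19352 such probes.

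**Figure D3:**
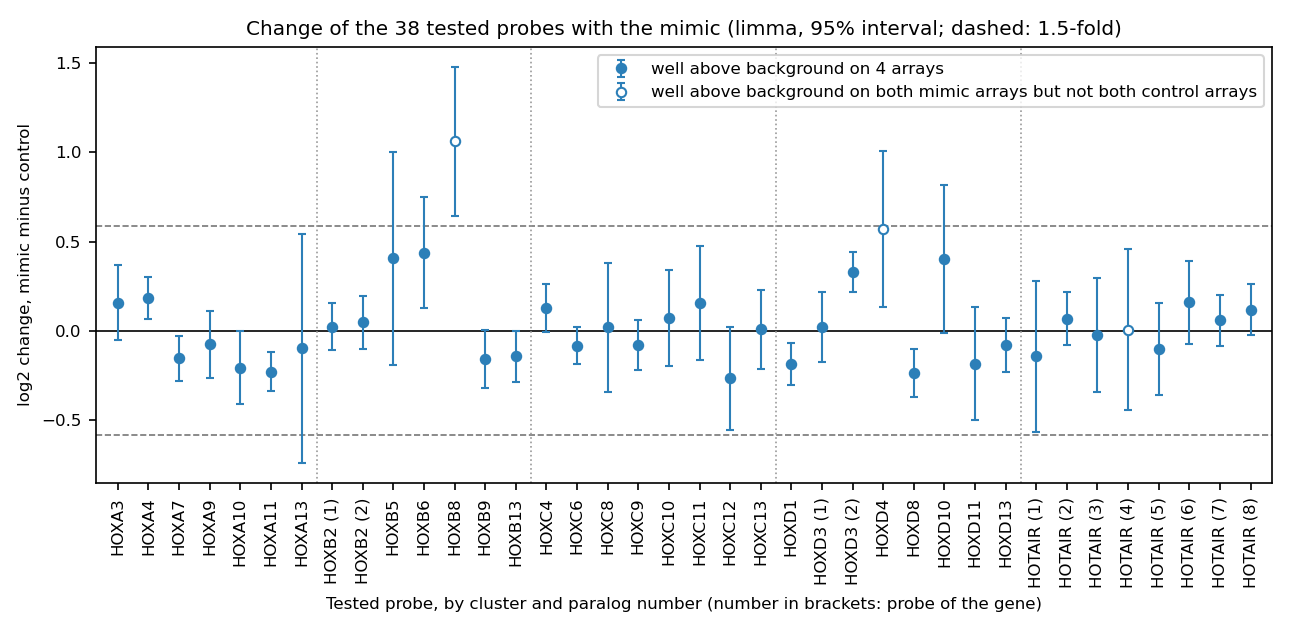
Log2 change (mimic minus control) of the 38 tested probes with the 95% interval from limma, by cluster and paralog number; dashed lines mark 1.5-fold and open circles the 3 probes detected on both mimic arrays but not on both control arrays. The measured change of HOXB8 (1.06) is the sole point beyond a dashed line, but its control arrays were not well above background. With those arrays raised to the lowest flagged signal the change is 1.37-fold, inside the line. No probe passed the adjusted threshold.

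HOXB8 was the 1 HOX gene whose measured change was past 1.5-fold, the limit the study used. With its control arrays raised to the lowest flagged signal, the change was not past it. Of all tested probes 2.43% were past it as higher and 1.47% as lower. HOXB8 takes part in the patterning of the trunk and is known from blood progenitors and as a target of miR-196. Its probe (chr17:46689835-46689894, minus strand, hg19) read -3.49 and -3.87 on the control arrays and -2.64 and -2.60 on the mimic arrays. The control arrays were not well above background, and the probe was tested because of the mimic arrays, where it was higher, so that its measured log2 change of 1.06 ± 0.14 (SE; limma adjusted p = 0.0661) is a description. Each control array was also set to the higher of its own signal and the lowest flagged signal. HOXB8 was then 1.37-fold higher with the mimic, under the 1.5-fold limit. This is no strict minimum, because an unflagged probe can read above the lowest flagged signal, as HOXB3 did at -2.57 on control array 1. After the normexp background correction, which adds an offset to all signals, the log2 change of HOXB8 was 0.20.

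HOXD4, a gene active in the hindbrain and the vertebrae of the neck, was also dim. It read -2.96 and -2.65 on the control arrays, of which the first was not flagged, and -2.11 and -2.35 on the mimic arrays. This probe too was tested because of the mimic arrays, where it was higher, and 1 of 2 control arrays measured it, so its log2 change of 0.57 ± 0.15 (SE; limma adjusted p = 0.142) is a description. HOXD3, its neighbor, had the smallest adjusted p of all HOX probes. The values of HOXD3, HOXB6, HOXB5, HOXD10, HOXA11, HOXD8 and HOXD1 are given because of their size or p, after they had been seen. The HOXD3 probe at chr2:177037727-177037786 (plus strand, hg19) read 0.37 on both control arrays and 0.72 and 0.68 on the mimic arrays, a log2 change of 0.33 ± 0.04 (SE; limma adjusted p = 0.0537). A different probe named HOXD3 lies 33.7 kb away, between the HOXD8 and HOXD4 probes. It read 0.17 and 0.27 on the control arrays and 0.18 and 0.30 on the mimic arrays, a change of 0.02 ± 0.07 (SE), so the probes of HOXD3 did not agree. HOXD3 passed the adjusted threshold in limma when the probes tested were limited to those detected on all 4 arrays (adjusted p = 0.0458), where 3.04% of all tested probes passed. After the normexp correction it passed too (limma adjusted p = 0.0227), with 6.91% of all, and with an intensity trend, with 15.2%. Its limma adjusted p was 0.0567 after quantile normalization, 0.0569 with spike-in scaling, 0.144 with the replicate number as a block and 0.534 without a filter. With the block and without a filter 0 of all tested probes passed.

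In the HOXB cluster the neighbors HOXB5 and HOXB6 were also on the higher side. HOXB6, a trunk gene, read -0.38 and -0.65 on the control arrays and -0.11 and -0.04 on the mimic arrays, a log2 change of 0.44 ± 0.11 (SE; limma adjusted p = 0.131). HOXB5 read -2.00 and -1.85 on the control arrays and -1.79 and -1.26 on the mimic arrays, a change of 0.41 ± 0.21 (SE; limma adjusted p = 0.315), and its mimic arrays differed from each other by more than its control arrays did. Of the 7 HOXB probes tested, 5 were above 0. They were those of HOXB5 and HOXB6, both of HOXB2 (0.02 and 0.05) and that of HOXB8, which was tested because of the mimic arrays. HOXB9 (-0.16) and HOXB13 (-0.14) were below 0. HOXD10, a posterior gene of the limb and lumbar cord, read -2.38 and -2.20 on the control arrays and -1.72 and -2.05 on the mimic arrays, a change of 0.40 ± 0.14 (SE; limma adjusted p = 0.206).

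Among the lower values, HOXA11, a gene of the uterus, kidney and forearm, read 1.04 and 1.01 on the control arrays and 0.81 and 0.79 on the mimic arrays, a log2 change of -0.23 ± 0.04 (SE; limma adjusted p = 0.0798). HOXD8 read 2.28 and 2.35 against 2.06 and 2.10, a change of -0.24 ± 0.05 (SE; limma adjusted p = 0.102). HOXD1, with 10 spots per array, had a change of -0.19 ± 0.04 (SE; limma adjusted p = 0.113). In each of these 3 genes both mimic arrays were below both control arrays. HOXA7, HOXA10, HOXB9, HOXB13, HOXC6, HOXC9, HOXC12, HOXD11 and HOXD13 also had both mimic arrays below both control arrays, with changes of -0.27 to -0.08 and limma adjusted p-values of 0.155 to 0.419. The dim HOXD11 read -2.19 and -2.47 on the control arrays and -2.54 and -2.48 on the mimic arrays, so its control arrays were farther apart than the groups. With single arrays left out its change ran from -0.32 to -0.0461, that of HOXC12 from -0.37 to -0.17 and that of HOXD13 from -0.12 to -0.0395.

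By cluster, the 7 HOXA probes had a median change of -0.10, the 7 HOXB probes 0.05, the 8 HOXC probes 0.01 and the 8 HOXD probes -0.03. The HOXB and HOXD medians include the probes of HOXB8 and HOXD4, tested because of the mimic arrays, where they were higher. The medians are therefore no comparison of the clusters. In HOXC the changes stayed between -0.27 and 0.16, with limma adjusted p-values of 0.208 to 0.952. HOXC6 had a change of -0.08 ± 0.04 (SE) and a 95% interval of -0.19 to 0.02. For HOXB2 the change was 0.02 ± 0.05 (SE) with an interval of -0.11 to 0.16, and its homeobox probe gave 0.05 ± 0.05 (SE). These intervals bound the difference that the 4 arrays allow and do not show that the groups were alike.

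HOTAIR was measured by 9 probes on chromosome 12 (minus strand, hg19), spread from 54350159 to 54362652. Of these 7 were detected on all 4 arrays. Its brightest probe, at chr12:54356096-54356155, read 1.47 and 1.5 on the control arrays and 1.5 and 1.59 on the mimic arrays, a log2 change of 0.06 ± 0.05 (SE; 95% interval -0.08 to 0.20; limma adjusted p = 0.505). The 8 tested probes had changes of -0.14 to 0.16, with 3 lower and 5 higher, a median of 0.03 and limma adjusted p-values of 0.248 to 0.984. The probes share 1 gene and are no replicates of the comparison. Both mimic arrays were above both control arrays in 4 of the 8, among them the probes with changes of 0.12 ± 0.05 and 0.16 ± 0.08 (SE), and below them in 0. Over all 19352 probes detected on all 4 arrays, both mimic arrays were above both control arrays in 26.6% and below them in 32.8%.

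Along the gene, the brightest probe and the 4 others within 0.565 kb of it, all near the 3′ end, were flagged on all 4 arrays. A probe 1.59 kb from the brightest one was flagged on all 4 arrays as well, at -1.44 and -1.47 on the control arrays. Toward the 5′ end, a probe at 5.02 kb read -2.65 and -2.67 on the control arrays and -2.50 and -2.59 on the mimic arrays, and the outermost, at 6.50 kb, was flagged on mimic array 1 alone. A further probe lies 5.94 kb beyond the brightest in the other direction, 7 bases from the HOXC12 probe and on the opposite strand. It belongs to a transcript model that the array assigns to HOTAIR, and it was flagged on both mimic arrays and on control array 2, with a log2 change of 0.01 ± 0.16 (SE). On the sense strand beside it, HOXC12 had a change of -0.27 ± 0.10 (SE; limma adjusted p = 0.22).

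**Figure D4:**
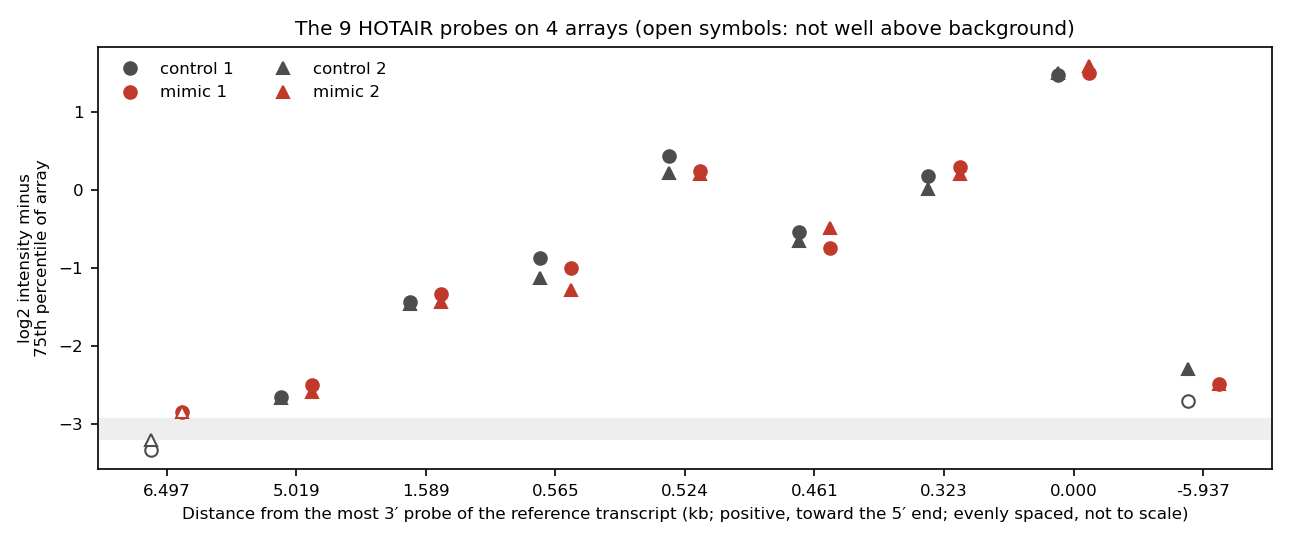
The 9 HOTAIR probes on the 2 control (gray) and 2 mimic (red) arrays, ordered by distance in kb from the most 3′ probe of the reference transcript (evenly spaced, not to scale), as log2 intensity minus the array's 75th percentile; open symbols were not well above background. At the 8 tested probes the group means differ by -0.14 to 0.16. At the most 5′ probe, which was not tested, the mimic arrays (both -2.85) lie above the control arrays (-3.34 and -3.21), and the outermost probes on either side are those with open symbols.

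Other transcripts of the clusters were read from the same arrays. Between the outermost HOX probes of each cluster lay 32 further probes, of which 12 were detected on both control arrays. In limma 0 of the 12 tested passed (lowest adjusted p 0.194), and 1 had an unadjusted p below 0.05. Of all tested probes 1.15% passed as lower and 1.47% as higher, and 25.3% had an unadjusted limma p below 0.05. HOXA11-AS1, antisense to HOXA11, read 3.89 on both control arrays and 3.90 and 3.93 on the mimic arrays on its brighter probe, a log2 change of 0.03 ± 0.04 (SE; limma adjusted p = 0.676), beside -0.23 for HOXA11. HOTAIRM1, at the anterior end of its cluster, read 1.55 and 1.54 on the control arrays and 1.63 and 1.62 on the mimic arrays, a change of 0.08 ± 0.04 (SE; limma adjusted p = 0.264). HOTTIP, at the HOXA13 end, was not flagged on any array by any of its 4 probes, although HOXA13 was detected. Of 22 RefSeq noncoding RNA and microRNA genes of the clusters that were sought, 9 had a probe, 6 of them under names other than those sought, and 6 were detected on all 4 arrays by at least 1 probe. HAGLR, antisense in the HOXD cluster and named LOC401022 on the array, read 2.15 and 2.10 on the control arrays and 2.05 and 2.00 on the mimic arrays, a change of -0.10 ± 0.05 (SE; limma adjusted p = 0.284). HOXD-AS2, there LOC100506783, had a change of -0.04 ± 0.04 (SE; limma adjusted p = 0.632). No probe was matched to a HOX cluster microRNA.

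The genes that act with or on the HOX clusters were counted from lists of known factors. Of 9 HOX cofactors of the PBX, MEIS and PKNOX families 7 were detected in control cells, and 0 of 8 tested passed in limma (4 lower, 4 higher, median 0.04); PKNOX2 had the smallest adjusted p (0.106), with a log2 change of 0.22. All 30 Polycomb genes were detected, and 0 passed (19 lower, 11 higher, median -0.05). Those with the smallest limma adjusted p were PHF1 (-0.28, 0.0679), EZH1, a PRC2 methyltransferase (0.27, 0.0756), and PCGF5, a PRC1 subunit (-0.30, 0.0759), each given as log2 change and adjusted p. All 16 genes of the MLL complexes and of the H3K27 demethylases were detected, and 0 passed (9 lower, 7 higher, median -0.01).

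The 5 genes of the LSD1, CoREST and REST group, partners of HOTAIR, were all detected, and 0 passed (2 lower, 3 higher, median 0.00181). Of 14 retinoid, CDX and other upstream regulators 7 were detected in control cells, and 0 of 7 tested passed (4 lower, 3 higher, median -0.08); CDX1, a homeobox activator of HOX genes, had the smallest limma adjusted p (0.122), with a log2 change of -0.37. The genes that flank the clusters also had 0 calls among 4 tested at HOXA, 1 at HOXB, 3 at HOXC and 3 at HOXD. At HOXA 3 were lower and 1 higher (median -0.16), and at HOXB the 1 tested, CALCOCO2, was lower (-0.52). At HOXC 3 were lower and 0 higher (median -0.05), and at HOXD 2 were lower and 1 higher (median -0.10). Over all 15454 gene names tested, 207 passed as lower and 219 as higher, with a median of -0.02. At an unadjusted limma p below 0.05 there were 2 of 8 tested cofactors, 10 of 30 Polycomb genes and 4 of 16 MLL and demethylase genes. There were also 1 of 5 HOTAIR partners and 4 of 7 upstream regulators. Of the flanking genes there were 3 of 4 at HOXA, 1 of 1 at HOXB, 0 of 3 at HOXC and 0 of 3 at HOXD. The share of all tested probes at that level was 25.3%.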

How the data were processed

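Gene expression in GIST-T1 cells was measured on 4 one-color Agilent arrays, 2 with a miR-335 mimic and 2 with a negative control. The authors deposited scanner files of Feature Extraction 10.7.3.1 (version per the file headers), whose spot intensity values were background-subtracted and detrended, with no normalization between arrays. The deposited value table holds the same intensity and served as an alternative; 0 of its columns matched no sample.

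Outlier spots were left out, spots of a probe were averaged as log2 intensity, and the array's 75th percentile was subtracted. A probe was well above background if the flag was set on at least 0.5 of its usable spots. The 20328 probes flagged on both arrays of either group were compared with limma 3.58.1 (R 4.3.3, eBayes without a trend), with Benjamini-Hochberg adjustment over all of them, a step that simulated data were used to test. The HOX genes, gene lists and tests were chosen with earlier results of these data known. Each gene was represented by its brightest tested probe. Values per array were to be given for genes past limma or 1.5-fold, the brightest gene of each cluster and HOTAIR, and for other lists at most 3 genes with the smallest p. Gene names and positions (hg19) were taken from the array files, and all 39 names matched a RefSeq symbol. A HOX gene and a leukocyte marker are not reported here and are left out of all counts of HOX genes and markers.

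Alternatives were quantile, detected-probe and spike-in scaling, normexp (offset of 50), the value table, other filters and flags, limma options, a replicate block, the methods' t-test and leaving out each array. The number of arrays limits the precision.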

Additional observations from a re-analysis of the deposited data

How the results depend on the processing

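The number of HOX and HOTAIR probes past the limma threshold, 0 of 38, was also 0 after quantile normalization, scaling to detected probes, with the value table, without a filter, with robust eBayes and with the replicate number as a block (replicate block, 0 probes; the correlation of the replicate differences between groups was 0.03), and 0 to 0 when single arrays were left out. Without a filter and with the block 0 of all tested probes were called, and 0 to 8 when single arrays were left out, so a 0 there says nothing about the HOX probes, and the call of HAND1 was lost; the quantile, detected-probe, value table and robust settings called 2.35% to 2.61% of all tested probes. The number of HOX and HOTAIR probes called was 1 with the filter on all 4 arrays (HOXD3), where 3.04% of all tested probes were called. With normexp it was 2 (HOXA11 and HOXD3), with 6.91% of all tested probes called. An intensity trend gave 7 (5 lower, 2 higher), with 15.2% of all tested probes called, and spike-in scaling 14 (13 lower, 1 higher), with 47.4%. The methods' t-test gave 8 at an unadjusted p of 0.05, a level at which its share of all tested probes was not counted. After its adjustment the t-test gave 0, as over all probes. The number past 1.5-fold, 1, was 5 without a filter, 2 with scaling to detected probes, 0 with normexp and 0 with the filter on all 4 arrays, which leaves out HOXB8; it was 1 to 2 when single arrays were left out (HOXD4 joined without control replicate 2 or mimic replicate 2, and HOXB5 without mimic replicate 1). Over all 50526 probes tested without a filter, 2759 were past 1.5-fold as lower and 3299 as higher. Of all 20328 probes tested in the main setting, 298 were past it as lower and 494 as higher. These counts were 284 and 519 with scaling to detected probes and 74 and 92 with normexp. With the filter on all 4 arrays they were 175 and 277 of 19352. The 27 genes detected in control cells became 24 to 36 under other rules, and 27 to 29 when a control array was left out. Among single genes, 19 of 29 kept their direction under every setting. Under spike-in scaling the log2 change reversed to -0.0299 for HOXA3, -0.00260 for HOXA4, -0.16 for HOXB2, -0.0600 for HOXC4, -0.17 for HOXC8, -0.11 for HOXC10, -0.0314 for HOXC11, -0.18 for HOXC13 and -0.13 for HOTAIR, and under normexp to -0.0299 for HOXB2 and -0.00875 for HOXC11. With single arrays left out, changes ran from -0.39 to 0.19 for HOXA13, -0.0132 to 0.0621 for HOXB2, -0.0973 to 0.136 for HOXC8, -0.0421 to 0.189 for HOXC10 and -0.0823 to 0.10 for HOXC13. The spike-in probes themselves were 0.19 higher on the mimic arrays under the main scaling, and the cause was not tested. The slide and scan block was not run, as all arrays shared 1 slide and 1 scan. Dim probes are a limit: 15 of 53 had no test, and normexp took the change of HOXB8 from 1.06 to 0.20.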
